A study of Mus musculus with 2 samples.

Results

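The interferon-gamma GTPases described here were 10 mouse genes given by name: the guanylate-binding proteins Gbp2, Gbp3, Gbp4, Gbp5, Gbp7 and Gbp9 and the immunity-related GTPases Irgm1, Irgm2, Igtp and Iigp1. All 10 had a feature among the 55450 genes of the count matrices, and together they held 140954 unique molecular identifiers (UMIs), each of which marks 1 captured transcript. The members were listed by symbol, and the listing rule used no measured value. They were still chosen with earlier results of these data known, so their counts set against all genes are not a blind comparison. The question asked of the data was in which cells of the tumor these genes were expressed, and how their levels compared between the libraries.

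The cells came from subcutaneous tumors of EMT6, a mouse mammary carcinoma line, grown in immunocompetent BALB/c mice after injection of 200000 cells. Mice of the LLY-283 + Olaparib group received LLY-283, an inhibitor of the arginine methyltransferase PRMT5, on a cycle of 3 days on and 4 days off, and Olaparib, an inhibitor of the repair enzyme PARP, with 50 mg/kg as the dose of each. Mice of the Combo group received both drugs on those schedules and an antibody to PD-1, in doses of 200 µg, 3 days apart. Each group was 1 single-cell 3′ library made from tumors of 3 mice pooled, so the treatment, the mice pooled and the library itself cannot be told apart, and both groups carried the PRMT5 and PARP inhibitors. No untreated tumor was analysed here.

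Interferon-gamma is secreted mainly by activated T cells and natural killer cells. Its receptor, a pair of chains encoded by Ifngr1 and Ifngr2, activates the kinases JAK1 and JAK2. Signalling ends at promoters that carry GAS elements or ISRE elements, and the factor IRF1, itself induced by the pathway, binds the latter. Guanylate-binding proteins and immunity-related GTPases are among the genes this pathway induces most strongly in many mouse cell types. Their products assemble on the vacuoles of intracellular pathogens and on cytosolic bacteria, GBP2 and GBP5 can promote inflammasome activation, and the IRGM proteins act as regulators that keep the effector GTPases off the membranes of the cell's own organelles.

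The promoter sequences are shown first, so that the letters of the elements named above can be read in them. RefSeq promoter windows of build GRCm38.p6, from 250 bases before to 50 bases after the transcription start, were used for 7 members: Gbp2, Gbp3, Gbp5, Gbp7, Irgm1, Igtp and Irgm2. Both strands were searched for the GAS letters TTCNNNGAA and the ISRE letters GAAANNGAAA. The ISRE letters were found in all 7 of these members, against 3.44% of 32851 promoters, and the GAS letters in 4 of them, Gbp5, Gbp7, Igtp and Irgm2, against 8.3%. The 4 members with both stood against 0.454% of all promoters. These percentages are per window, whereas a member was counted if any of its windows had a match. A further window of Gbp3 (chr3:142560106-142560405) held no match of either kind. Such a match is a description of the letters and not a binding site. The sequences below run 5′ to 3′ on the strand of the gene and end at the last base before the start; capitals mark the matches. Gbp2 is shown as the most abundant member, Gbp5 as the one with the largest ratio between the libraries in tumor cells, and Igtp with Irgm2 as a near-identical pair.
Gbp2 (chr3:142620543-142620662, plus strand): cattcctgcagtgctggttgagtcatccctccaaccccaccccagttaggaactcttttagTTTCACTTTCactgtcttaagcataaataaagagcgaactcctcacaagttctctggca
Gbp5 (chr3:142496684-142496933, plus strand): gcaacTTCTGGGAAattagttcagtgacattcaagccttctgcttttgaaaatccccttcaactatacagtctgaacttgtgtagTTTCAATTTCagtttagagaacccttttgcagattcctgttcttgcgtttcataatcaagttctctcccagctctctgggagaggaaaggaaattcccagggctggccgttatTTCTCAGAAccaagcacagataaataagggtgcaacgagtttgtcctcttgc
Igtp (chr11:58199436-58199555, plus strand): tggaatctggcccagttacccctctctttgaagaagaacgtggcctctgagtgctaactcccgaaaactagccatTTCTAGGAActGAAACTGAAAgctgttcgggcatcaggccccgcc
Irgm2 (chr11:58214857-58214976, plus strand): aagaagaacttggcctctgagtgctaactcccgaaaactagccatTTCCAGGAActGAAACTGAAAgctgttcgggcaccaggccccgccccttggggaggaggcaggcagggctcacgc

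In Gbp2 the single match was the ISRE TTTCACTTTC, 59 to 50 bases before the start. Gbp5 held GAS matches 245 to 237 and 52 to 44 bases before the start and an ISRE match between them. In Igtp and Irgm2 a GAS match stood just ahead of an ISRE match, and when the windows were lined up at the GAS match 127 of 140 bases, 90.7%, were identical. Gbp3 and Irgm1 each held 2 ISRE matches that overlapped each other and no GAS match.

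**Figure D1:**
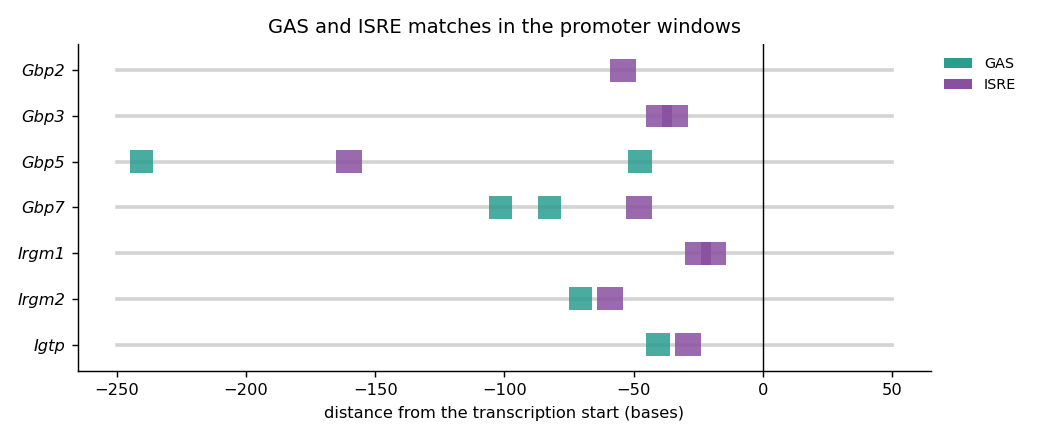
Position of the GAS and ISRE letters, in bases from the transcription start, in promoter windows of 7 members. Each grey line is 1 window and each block 1 match, on either strand. A further window of Gbp3, without a match, is not drawn. All 7 members hold an ISRE match, and Gbp5, Gbp7, Igtp and Irgm2 also hold a GAS match.

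The genes lie in groups. In GRCm38, Gbp5 (chr3:142493978-142522344), Gbp7 (chr3:142530342-142550149), Gbp3 (chr3:142560026-142573209) and Gbp2 (chr3:142620602-142638008) follow each other on the plus strand within 144031 bases. Gbp4 (chr5:105115767-105139586) and Gbp9 (chr5:105077630-105139539) share 23773 bases of their models on the minus strand of chromosome 5, and Igtp (chr11:58199556-58207591) and Irgm2 (chr11:58199618-58222782) share 7974 bases on the plus strand of chromosome 11. Counts of Gbp4 against Gbp9 and of Igtp against Irgm2 are therefore uncertain, because reads in the shared stretch can be given to either gene or dropped. Irgm1 (chr11:48861968-48871683, minus strand) lies apart from the other members of chromosome 11.

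Cells were assigned to compartments by the share of their UMIs on fixed lists of marker genes that contain no GTPase: keratins and Epcam for tumor cells, Lyz2, Cd68, S100a8 and other myeloid genes, T, NK and B cell genes for lymphoid cells, and fibroblast or endothelial genes for stromal cells. The libraries held 16115 and 7542 cells, with 147214934 and 162522700 UMIs, in the order LLY-283 + Olaparib, then Combo, which is kept throughout. Tumor cells numbered 10887 and 2768, myeloid cells 1775 and 2047, lymphoid cells 66 and 42, and stromal cells 185 and 71. All 4 tumor markers had at least 3 UMIs in tumor cells of both libraries, but Flt3 of the myeloid list, Rgs5 of the stromal list and the B cell genes Cd79a, Cd79b and Ms4a1 of the lymphoid list were at 0 in the LLY-283 + Olaparib library. The 66 lymphoid cells of that library were 43 T cells, 12 NK cells and 11 cells without a sub-class. Depth differed: the median UMI count of a tumor cell was 9625 and 47461, of a myeloid cell 1107 and 2144, and of a lymphoid cell 986.5 and 4088. The 2 libraries shared 39 cell barcodes.

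RNA of tumor cells was present in the other compartments. Its share was estimated from genes at 200 CPM or more in tumor cells (UMIs of the gene relative to all UMIs of the class, scaled to a common total). For each other compartment the 20 such genes lowest there were used. They were chosen on these same counts, so where UMIs are few, as in lymphoid cells, the estimate can be too low. In neutrophils the median of the 20 genes was 48.1% of the tumor level in the LLY-283 + Olaparib library and 22.0% in the Combo library. It was 34.2% and 15.0% in all myeloid cells, 27.3% and 15.5% in stromal cells and 13.9% and 8.30% in lymphoid cells. These shares differed between the libraries, so the levels outside tumor cells are also given below after subtraction of tumor RNA at these shares, an alternative chosen after the data were seen.

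The GTPases were expressed in all 4 compartments, and no compartment was free of them. Their summed level in tumor cells was 339 CPM in the LLY-283 + Olaparib library and 572 CPM in the Combo library. In myeloid cells it was 285 and 427 CPM, and in stromal cells 254 and 215 CPM. Lymphoid cells stood highest by the point value, at 506 CPM (95% Poisson interval 356 to 697) and 604 CPM (517 to 700), but in the Combo library this interval held the tumor level. In the LLY-283 + Olaparib library the intervals of myeloid cells (267 to 304) and stromal cells (219 to 293) overlapped, and in the Combo library they did not (415 to 440 and 190 to 243). These intervals, like all those below, cover counting error only.

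Tumor cells, the most numerous and the deepest, held most of the transcripts. Of the GTPase UMIs in the 4 compartments, 97.4% and 94.4% were in tumor cells, where 96.9% and 92.3% of all UMIs lay. Myeloid cells held 2.06% and 5.12% of the GTPase UMIs and 2.44% and 6.70% of all UMIs. The GTPase transcripts were thus spread over the compartments nearly as all transcripts were.

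Individual members differed widely in abundance. Each UMI was read from the 3′ end of 1 transcript, so gene length does not enter these levels. Gbp2, an effector GTPase of the cytosolic defense against bacteria, made up 40.2% and 42.4% of the GTPase UMIs of tumor cells, and Gbp7 25.4% and 24.6%. Gbp3 came next with 14.0% and 12.2%. At the other end, Irgm2, a regulator of the effector GTPases, had 0.986% and 0.739%. The guanylate-binding proteins of chromosome 3 other than Gbp5 thus dominated in tumor cells, and the IRG family was the minor part.

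**Figure D2:**
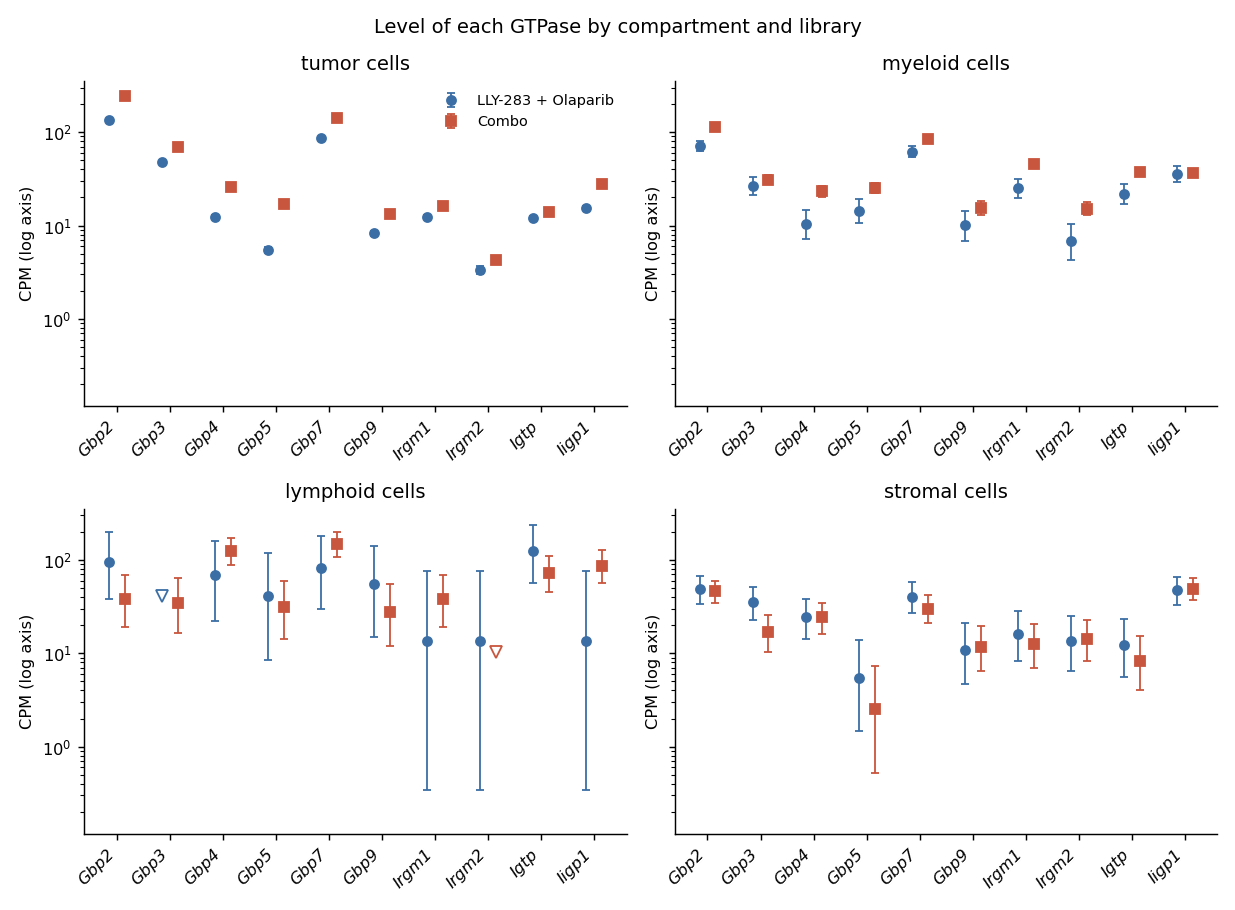
Level of each GTPase in CPM (log axis) in tumor, myeloid, lymphoid and stromal cells; circles are the LLY-283 + Olaparib library, squares the Combo library, bars 95% Poisson counting intervals, and open triangles the level that 3 UMIs allow where none was found. Gbp2 and Gbp3 are highest in tumor cells in both libraries, and the lymphoid values carry the widest intervals.

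Myeloid cells differed from tumor cells in both directions. By edgeR's quasi-likelihood test on the UMI sums of 8 class and library pairs with the library as a block, 5 members were higher and 3 lower in myeloid than in tumor cells at an adjusted p under 0.05, where 28.9% of 11850 genes were called higher and 28.8% lower. All 4 IRG members were among the 5. With the library as a block, the p-values measure how far the differences between classes varied between these 2 libraries of pooled mice. The libraries differ in treatment, so that spread includes the treatment.

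Irgm1 was at 12.4 and 16.3 CPM in tumor cells and at 25.1 and 45.5 CPM in myeloid cells, a log2 fold change of 1.40 ± 0.22 (SE, adjusted p = 1.69e-05). Its levels in myeloid cells of both libraries were above those in tumor cells of both. Irgm2, which also regulates effector GTPases, went from 3.34 and 4.23 CPM to 6.90 and 15.2 CPM (log2 fold change 1.68 ± 0.30, adjusted p = 8.12e-05), and Igtp, also called Irgm3, from 12.1 and 14.1 to 22.0 and 37.4 CPM (1.31 ± 0.23, adjusted p = 5.19e-05). For these 3 regulators, and also for Iigp1, the 2 myeloid values did not overlap the 2 tumor values. How often this held among all genes was not counted, so nothing about the members is read from it. Iigp1, an effector that is loaded onto pathogen vacuoles, was at 15.4 and 27.7 CPM in tumor cells and 35.8 and 36.5 CPM in myeloid cells (0.89 ± 0.23, adjusted p = 0.0032).

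Of the guanylate-binding proteins, Gbp5 was the one higher in myeloid cells, at 14.4 and 25.5 CPM against 5.48 and 17.2 CPM in tumor cells (log2 fold change 1.02 ± 0.26, adjusted p = 0.0022). That call held in 8 of 11 alternatives, with log2 fold changes from 0.60 to 1.11 and adjusted p up to 0.11. GBP5 is known for promoting assembly of the NLRP3 inflammasome. Gbp2 was lower in myeloid cells, at 71.5 and 113 CPM against 136 and 242 CPM (-0.90 ± 0.21, adjusted p = 0.0012), and so were Gbp3 (-0.90 ± 0.25, adjusted p = 0.0059) and Gbp7 (-0.51 ± 0.20, adjusted p = 0.034). Gbp4 and Gbp9, whose models overlap, had log2 fold changes of -0.04 (adjusted p = 0.88) and 0.38 (adjusted p = 0.17). The calls of the 3 lower members depended on the method: DESeq2 and a Leiden clustering of the cells each gave 0 members lower in myeloid cells, with 4 members higher under either and 6 and 7 members at an unadjusted p under 0.05 in either direction, and the share of higher among all called genes went from 50.1% to 57.2% and 64.1%.

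**Figure D3:**
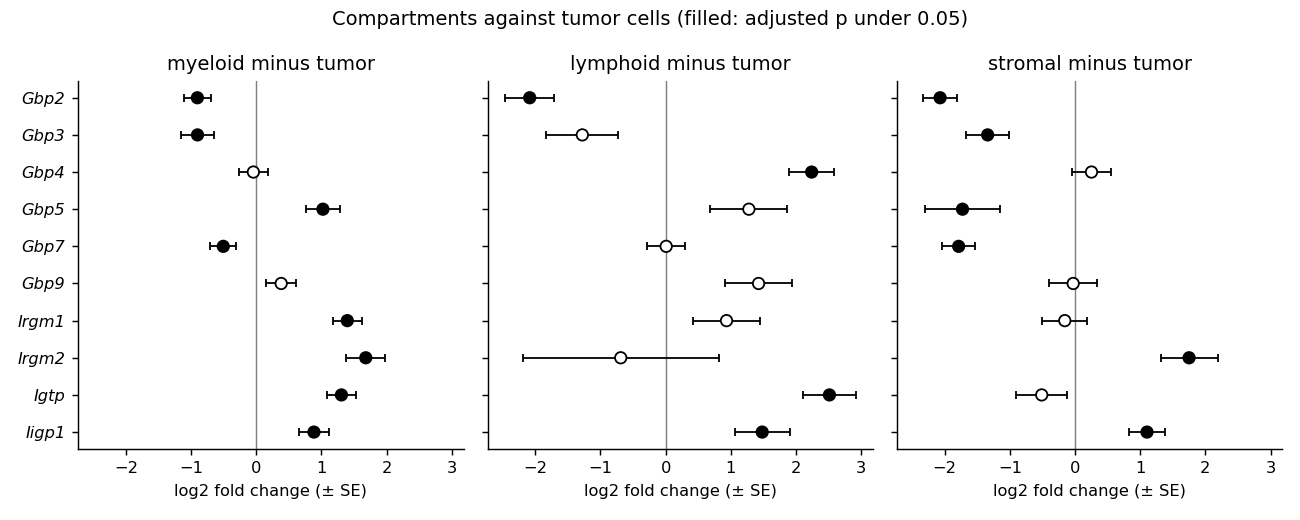
Log2 fold change (± SE, edgeR) of each GTPase in myeloid, lymphoid and stromal cells relative to tumor cells; filled points have an adjusted p under 0.05. In myeloid cells all 4 IRG members and Gbp5 lie to the right, and Gbp2 is to the left in all 3 panels.

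Lymphoid cells were few, and 3 members were higher and 1 lower than in tumor cells, against 10.5% and 12.2% of 11850 genes. Gbp4 was at 68.3 and 125 CPM in lymphoid cells and 12.3 and 26.0 CPM in tumor cells (log2 fold change 2.24 ± 0.34, adjusted p = 4.59e-05), and Igtp at 123 and 72.9 CPM against 12.1 and 14.1 CPM (2.51 ± 0.40, adjusted p = 7.22e-05). Both were higher in lymphoid cells of each library, but from 5 and 36 UMIs for Gbp4 and 9 and 21 UMIs for Igtp. In the Combo library 41.7% of these Gbp4 UMIs and 66.7% of these Igtp UMIs lay in 5 cells. Iigp1 was called higher as well (1.48 ± 0.42, adjusted p = 0.016), yet it had 1 UMI in the LLY-283 + Olaparib library and 25 in the Combo library, of which 92.0% lay in 5 cells; in the LLY-283 + Olaparib library alone its log2 fold change was -0.17. Gbp2 was lower, at 95.7 and 38.2 CPM against 136 and 242 CPM (-2.09 ± 0.38, adjusted p = 0.0004), from 7 and 11 UMIs. With the gates doubled 6 members were called higher, where 1263 of 11698 genes were, and with them halved 2, where 1094 of 11750 genes were.

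Stromal cells were mostly fibroblasts, 159 of 185 and 60 of 71 cells. There 2 members were higher and 4 lower than in tumor cells, where 22.4% and 19.4% of 11850 genes were called. Gbp2 was at 48.6 and 45.9 CPM (log2 fold change -2.07 ± 0.26, adjusted p = 1.99e-06) and Gbp7 at 40.5 and 30.0 CPM (-1.79 ± 0.26, adjusted p = 8.7e-06), both below the tumor values of either library. Gbp3 (-1.34 ± 0.33, adjusted p = 0.0039) and Gbp5, with only 4 and 3 UMIs (-1.73 ± 0.57, adjusted p = 0.021), were the other members called lower. Gbp5 was at 5.40 CPM against 5.48 CPM in tumor cells of the LLY-283 + Olaparib library and at 2.50 against 17.2 CPM in the Combo library, so its call rested on the latter, and it held in 6 of 11 alternatives (highest adjusted p = 0.23). Iigp1 was higher in stromal cells at 47.2 and 49.2 CPM (1.10 ± 0.28, adjusted p = 0.0036), with 48.6% and 55.9% of its UMIs in 5 cells, and so was Irgm2 at 13.5 and 14.2 CPM (1.75 ± 0.44, adjusted p = 0.0029). Under DESeq2 the lower count was 2, and under the Leiden clusters and with the gates halved the higher count was 1.

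For Iigp1, macrophages and stromal cells had the highest values that rested on at least 20 UMIs in both libraries, 49.2 and 49.9 CPM and 47.2 and 49.2 CPM, while neutrophils were at 21.3 and 13.5 CPM and tumor cells at 15.4 and 27.7 CPM. Between macrophages and stromal cells the values lay within each other's counting intervals. In macrophages 37.4% of 91 and 53.4% of 305 Iigp1 UMIs lay in 5 cells, so these levels rested on few cells in both classes.

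Within the myeloid compartment, neutrophils had the higher levels of most members. Macrophages, cells with C1qa, Csf1r and related genes, numbered 714 and 490, and neutrophils, with S100a8, Csf3r and related genes, 798 and 1379. Of the 10 members 1 was higher and 7 were lower in macrophages, against 11.0% and 19.5% of 10429 genes. Gbp2 was at 116 and 227 CPM in neutrophils and 46.5 and 67.4 CPM in macrophages (log2 fold change -1.94 ± 0.28, adjusted p = 1.07e-05). Gbp5 was at 18.1 and 53.3 CPM against 11.9 and 14.1 CPM (-1.90 ± 0.35, adjusted p = 0.00021), and Irgm1 at 37.2 and 77.2 CPM against 19.4 and 31.4 CPM (-1.56 ± 0.32, adjusted p = 0.00066). All 3 were higher in neutrophils than in macrophages of both libraries. Igtp (-1.46), Gbp7 (-1.29) and Gbp9 (-1.47) were also called lower. So was Irgm2 (-1.60), although it was at 4.25 and 31.2 CPM in neutrophils and 9.72 and 8.50 CPM in macrophages, the higher in macrophages of the LLY-283 + Olaparib library from 4 and 18 UMIs, and its adjusted p by DESeq2 was 0.32. Iigp1 was the single member called higher in macrophages (1.28 ± 0.39, adjusted p = 0.015). The estimate of tumor RNA was 48.1% and 22.0% in neutrophils and 25.4% and 10.7% in macrophages. After its subtraction all members called lower except Irgm2 were still higher in neutrophils of both libraries. Gbp2 was then at 96.9 and 223 CPM against 15.9 and 46.3 CPM. Gbp3, which was not called, was at 5.19 and 32.2 CPM against 20.1 and 20.9 CPM. Scaling by library size alone moved the median of all genes from -0.07 to 0.27 and the share of higher calls from 36.0% to 62.3%, with 1 and 7 members still called in the same directions; without the library block, with the gates doubled and by DESeq2, 0 members were higher.

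Between the libraries, with 1 of each group, no test was possible. A member was counted as higher or lower where its CPM differed at least 1.5-fold and its UMIs summed to 50 or more over the 2 libraries, and ratios are Combo over LLY-283 + Olaparib with exact 95% intervals that compare these 2 libraries and not the treatments. In tumor cells 6 of 10 members were higher and 0 lower in the Combo library, against 5.51% of 15311 genes higher and 3.69% lower. The median log2 ratio of the members was 0.69 and that of all genes 0.06. Tumor cells were a mix. In a breakdown by Leiden cluster made after the data were seen, 1 cluster held 1.71% and 3.61% of them, at 1829 and 2361 CPM. Another, with 53 and 32 tumor cells, was at 807 and 2308 CPM. Other clusters with at least 20 tumor cells were at 168 to 441 CPM and 258 to 739 CPM. Each cluster with that many in both libraries was the higher in the Combo library. The part of this mix in the ratios was not tested.

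Gbp5 had the largest ratio in tumor cells, from 5.48 to 17.2 CPM, a ratio of 3.14 (2.88 to 3.42). Gbp4 went from 12.3 to 26.0 CPM (2.12, 2.00 to 2.25), and Gbp2 from 136 to 242 CPM (1.78, 1.74 to 1.81). These guanylate-binding proteins were higher in the Combo library, as were Gbp7, from 86.1 to 141 CPM (1.64), and Gbp9, from 8.29 to 13.2 CPM (1.59). Of the IRG family, Iigp1 was higher, from 15.4 to 27.7 CPM (1.81, 1.71 to 1.91). In tumor cells 7.48% and 12.8% of the Gbp5 UMIs and 6.11% and 12.1% of the Iigp1 UMIs lay in 5 cells. The regulators Irgm1 (1.32), Irgm2 (1.27) and Igtp (1.16, 1.09 to 1.24) stayed under 1.5-fold, as did Gbp3 (1.47), which lay just inside the limit.

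**Figure D4:**
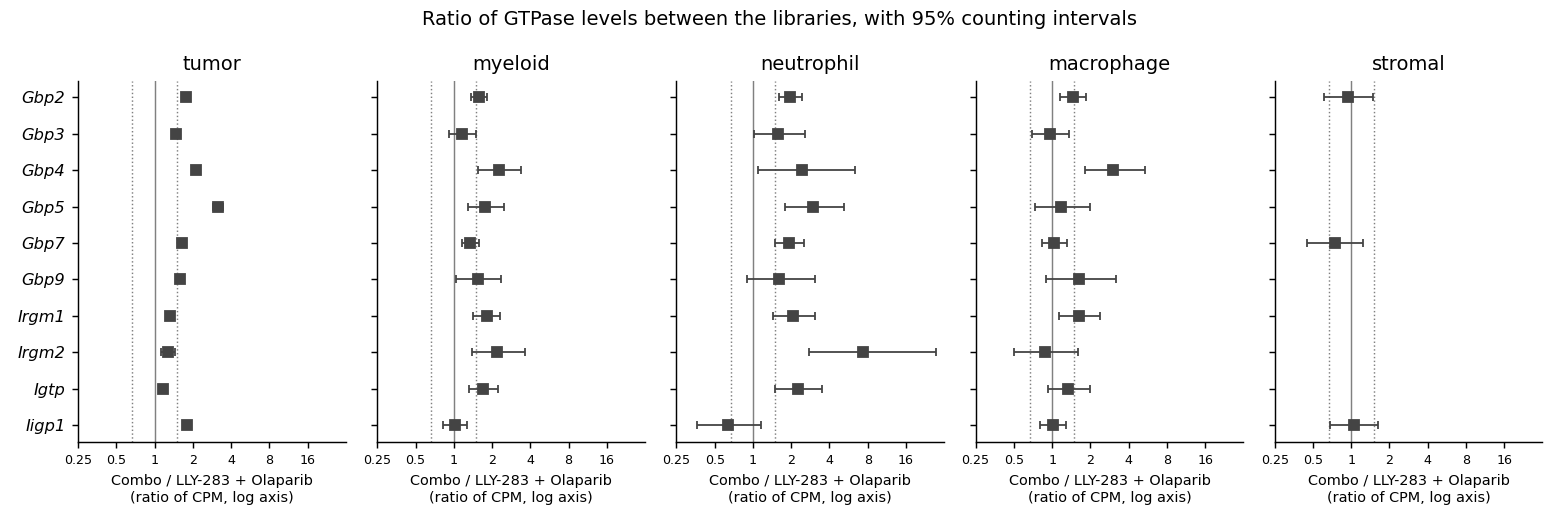
Ratio of CPM (log axis), Combo over LLY-283 + Olaparib, of each member with 50 or more UMIs summed over the libraries, in tumor cells, myeloid cells, neutrophils, macrophages and stromal cells; bars are exact 95% counting intervals, the solid line is a ratio of 1 and the dotted lines 1.5-fold. In tumor cells 6 members lie beyond 1.5-fold, all higher in the Combo library. In neutrophils 9 lie beyond it as higher and 1, Iigp1, as lower, and in stromal cells 0 of 3 lie beyond it.

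The tumor ratio moved with the depth of the cells compared. In cells of 10000 to 20000 UMIs, 3894 and 152 cells, the summed level was 341 and 419 CPM, a ratio of 1.23 (1.15 to 1.31), and 2 members passed 1.5-fold, Gbp4 (1.58) and Iigp1 (1.82), where 6.62% of 12242 genes were higher and 19.4% lower. In cells of 20000 to 40000 UMIs, 1182 and 629 cells, it was 324 and 587 CPM, a ratio of 1.81 (1.76 to 1.86), and Gbp5 stood at 4.04 and Iigp1 at 2.57, with 9.79% of 12077 genes higher and 7.49% lower. Both windows were chosen after the data were seen. Within the Combo library the summed level was 748 CPM in 62 cells of 2000 to 5000 UMIs, 398 CPM in 85 cells of 5000 to 10000 UMIs, and 584 CPM in 1451 cells of 40000 to 80000 UMIs. Within the LLY-283 + Olaparib library it declined from 388 to 321 CPM over the same range of UMIs. The part of depth in the ratio was not tested.

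At equal depth the distribution over single tumor cells was broad. After each cell was thinned to 5000 UMIs, 9323 and 2640 cells had a mean of 1.72 and 2.83 GTPase UMIs, a median of 1 and 2, and a 95th percentile of 6 and 9. Cells without any were 34.3% and 22.4%. Gbp2 had a mean of 2.03 UMIs in cells with a Gbp5 UMI and 0.657 in cells without in the LLY-283 + Olaparib library, and 3.09 and 1.09 in the Combo library. With Iigp1 in place of Gbp5 the means were 1.70 and 0.630, and 2.57 and 1.09. The difference was smaller with Irgm1, at 1.03 and 0.666, and 1.89 and 1.15. With Irf1, which is not a member, the means were 0.857 and 0.653, and 1.54 and 1.09. Genes outside the interferon lists were not compared in this way. The variance of Iigp1 was 2.50 and 3.27 times its mean, against 1.06 and 1.10 times for Gbp9, so Iigp1 transcripts were the more concentrated in few cells.

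**Figure D5:**
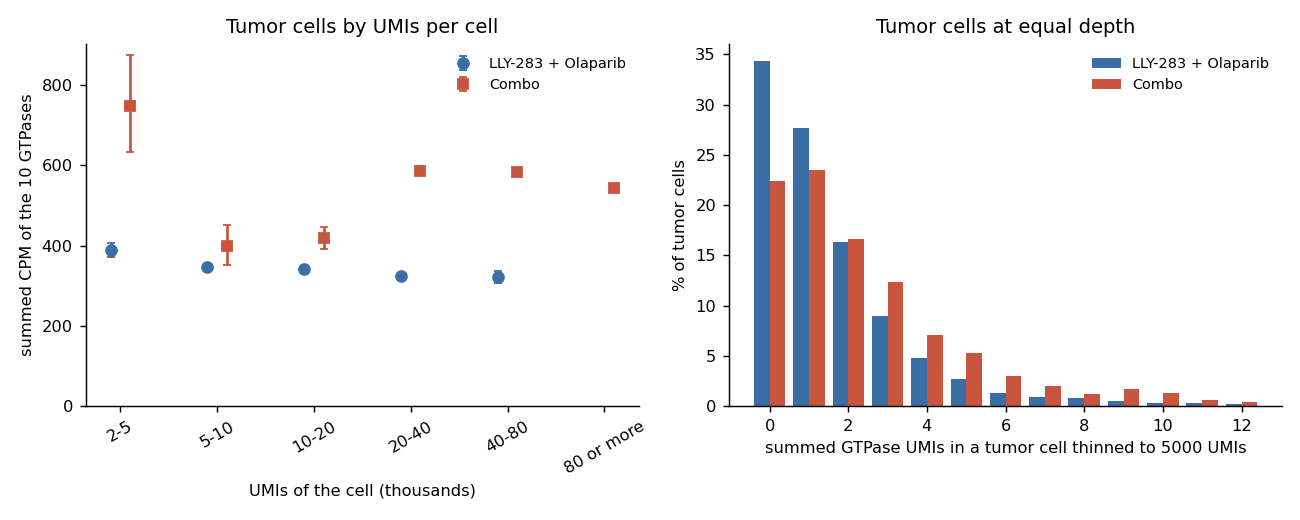
Left, summed CPM of the 10 GTPases in tumor cells binned by UMIs per cell (in units of 1000), with 95% counting intervals; right, percent of tumor cells by summed GTPase UMIs after thinning to 5000 UMIs, for up to 12 UMIs. The Combo library is above the LLY-283 + Olaparib library in every shared bin, least so at 5000 to 20000 UMIs.

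The myeloid cells of the libraries were a different mix. Neutrophils and macrophages numbered 798 and 714 in the LLY-283 + Olaparib library and 1379 and 490 in the Combo library, and of the Leiden clusters with most myeloid cells 1 held 30 and 1139 of them, another 667 and 153, and another 825 and 525. A ratio over all myeloid cells therefore combines this mix with the levels within each type. Over all of them 7 of 10 members were higher in the Combo library, against 10.3% of 10344 genes in either direction. Irgm2 went from 6.90 to 15.2 CPM (2.20, 1.40 to 3.61), Gbp4 from 10.4 to 23.4 CPM (2.26, 1.56 to 3.36) and Irgm1 from 25.1 to 45.5 CPM (1.81, 1.43 to 2.33). Gbp2, Gbp5, Gbp9 and Igtp were the others. Of the 231 Gbp4 UMIs of the Combo library 29.0% lay in 5 cells, and at 1000 UMIs a cell 1.24% and 1.49% of myeloid cells had one (0.258 points, -0.774 to 1.12). Iigp1 was at 35.8 and 36.5 CPM (1.02, 0.825 to 1.27), with 29.8% of 114 and 45.2% of 361 UMIs in 5 cells. At 1000 UMIs a cell 2.69% and 1.58% of myeloid cells had an Iigp1 UMI (-1.11 points, -2.43 to -0.0153). After subtraction of tumor RNA the summed level was 257 and 402 CPM, a ratio of 1.57; the ratio of Gbp2 was then 2.40, that of Gbp5 1.41 and that of Iigp1 0.821.

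Neutrophils and macrophages were then taken apart, and the intervals of their summed ratios did not overlap. In neutrophils the summed level went from 349 to 696 CPM (1.99, 1.77 to 2.25), and 9 members were higher and 1, Iigp1, lower, where 20.4% of 6602 genes were higher and 33.3% lower and the median log2 ratio of all genes was -0.26. Gbp5 went from 18.1 to 53.3 CPM (2.95, 1.78 to 5.19), Irgm1 from 37.2 to 77.2 CPM (2.07) and Irgm2 from 4 to 90 UMIs (7.33, 2.76 to 27.5). Iigp1 was at 21.3 and 13.5 CPM, a ratio of 0.635 whose interval, 0.361 to 1.15, included 1. With tumor RNA subtracted the summed level was 358 and 731 CPM, a ratio of 2.04. Of the 52 Gbp4 UMIs of Combo neutrophils 50.0% lay in 5 cells, and at 1000 UMIs a cell 1.42% and 0.952% of neutrophils had one.

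In a breakdown by cluster made after the data were seen, different Leiden clusters held most of the neutrophils, 1 with 83.0% of them in the LLY-283 + Olaparib library and another with 82.5% in the Combo library. Within the former cluster, 662 and 144 neutrophils, the summed level was 377 CPM (331 to 429) and 782 CPM (658 to 923). Within the latter it was 544 CPM (322 to 859) in 30 neutrophils and 717 CPM (683 to 752) in 1138, and these intervals overlapped. Most macrophages, 81.5% and 82.4%, lay in a single cluster, at 254 CPM (228 to 282) and 346 CPM (329 to 363).

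In macrophages the summed level was 256 and 320 CPM (1.25, 1.13 to 1.39), and 3 members, Gbp4 (3.03), Gbp9 (1.63) and Irgm1 (1.61), were higher and 0 lower, against 7.08% and 5.93% of 9076 genes. With tumor RNA subtracted the summed level was 227 and 290 CPM, a ratio of 1.28, and the ratio of Gbp2 was 2.92. The median UMI count was 692.5 and 1876 in neutrophils and 2220.5 and 11883.5 in macrophages, and its part in these ratios was not tested.

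In stromal cells 3 members had enough UMIs and 0 were higher or lower, against 8.33% and 4.07% of 5333 genes. Gbp2 was at 48.6 and 45.9 CPM (0.945, 0.610 to 1.48), Gbp7 at 40.5 and 30.0 CPM (0.742, 0.445 to 1.25) and Iigp1 at 47.2 and 49.2 CPM (1.04, 0.675 to 1.63). Stromal cells were a mix by Leiden cluster, seen afterwards. In 1 cluster 156 and 55 of them had a summed level of 221 CPM (187 to 260) and 181 CPM (156 to 208). In another, 25 cells of the LLY-283 + Olaparib library were at 508 CPM (368 to 685). The part of this mix in the summed ratio was not tested. The summed ratio was 0.849 (0.701 to 1.03), below the interval of tumor cells, 1.67 to 1.71, in the same libraries. After subtraction of tumor RNA it was 0.678, with Gbp2 at 15.5 and 9.88 CPM (0.636) and Gbp7 at 23.3 and 9.76 CPM (0.418). In lymphoid cells 0 members reached 50 UMIs, where 13.8% of 1074 genes were higher and 12.1% lower, and the summed level of 506 and 604 CPM gave a ratio of 1.19 (0.833 to 1.75), or 540 and 607 CPM (1.12) with tumor RNA subtracted.

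Shares of cells were compared at equal depth. After each cell was thinned to 1000 UMIs, 25.2% and 35.6% of tumor cells had at least 1 GTPase UMI, a difference of 10.4 percentage points (95% Newcombe interval 8.46 to 12.4). In myeloid cells the shares were 19.8% and 31.4% (11.6 points, 8.20 to 14.8). In stromal cells they were 19.7% and 19.6% (-0.174 points, -10.7 to 13.1), and in lymphoid cells 29.5% and 51.3% (21.8 points, -1.10 to 41.4). Thinning left out 32 and 39 tumor, 817 and 276 myeloid, 12 and 15 stromal and 35 and 1 lymphoid cells. Unthinned, the shares were 80.5% and 96.0% of tumor cells and 29.8% and 57.5% of myeloid cells. No class lacked the GTPases, so no background share was available. Skeletal muscle cells, 22 and 36 of them, had 2 and 22 GTPase UMIs, and after thinning 8.33% of 12 and 28.2% of 21 cells had one.

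The ligand was found almost only in lymphoid cells. Ifng had 3 and 100 UMIs there, and elsewhere at most 5 in any compartment of either library. In the Combo library 84 of the 100 UMIs lay in 1 T cell and 98.0% in 3 cells; cells with an Ifng UMI were 2 of 66 and 5 of 42. The difference in Ifng level, 41.0 to 347 CPM, therefore rested on 1 cell. Of the type I and III ligands none reached 50 UMIs, and Ifnb1, encoding interferon-beta, had 17 and 1 UMIs in tumor cells.

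The genes of the receptor and its signalling were compared in the same way. Of 11 in tumor cells, 2 were higher in the Combo library, Irf1 and Irf8, and 0 lower, against 5.51% and 3.69% of 15311 genes. Irf1 went from 37.6 to 72.3 CPM (1.93, 1.86 to 1.99). Irf8 was at 2.25 and 3.62 CPM in tumor cells and at 96.3 and 146 CPM in myeloid cells. The myeloid marker genes together had 281 and 384 CPM in tumor cells and 28729 and 42300 CPM in myeloid cells. The part of myeloid RNA in low tumor values was not tested. The receptor genes Ifngr1 (24.0 and 30.8 CPM) and Ifngr2 (22.2 and 19.3 CPM), and the kinase genes Jak1 (149 and 154 CPM) and Jak2 (25.6 and 26.3 CPM) were within 1.5-fold. So was Socs1, the feedback inhibitor of the kinases, at 17.8 and 15.7 CPM. In neutrophils 8 of 11 were higher and 0 lower, with Irf1 at 82.9 and 231 CPM (2.78). Of all 6602 genes there, 20.4% were higher and 33.3% lower. Against tumor cells, 11 of 12 signalling genes were higher in myeloid cells and 0 lower, against 28.9% and 28.8% of 11850 genes. Ifngr1 was at 85.9 and 120 CPM in myeloid cells. In stromal cells 7 signalling genes were higher and 1 lower, against 22.4% and 19.4% of 11850 genes.

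Relatives and other targets were counted in tumor cells too, where 5.51% of 15311 genes were higher and 3.69% lower. Of the further guanylate-binding proteins 4 of 4 compared were higher in the Combo library: Gbp2b from 84.9 to 177 CPM (2.08, 2.04 to 2.13), and Gbp8, Gbp6 and Gbp10, each below 3 CPM. Of the further IRG genes, 1 of 4, Tgtp2, was higher, and 9930111J21Rik2 was at 7.59 and 9.60 CPM. Among 12 other interferon-gamma targets 3 were higher, Cxcl11, Ciita and Ido1, each below 2 CPM. The most abundant ones were within 1.5-fold. These were B2m of MHC class I (1963 and 1628 CPM), the immunoproteasome subunits Psmb8 (634 and 790 CPM) and Psmb9 (162 and 189 CPM). The peptide transporter Tap1 (51.4 and 56.4 CPM) was another. Of 9 mainly type I interferon targets 0 were higher, with Isg15 at 248 and 259 CPM and Ifit1 at 30.2 and 38.0 CPM. In neutrophils 7 of 8 type I targets were higher, with Isg15 at 598 and 1159 CPM. Of all 6602 genes there, 20.4% were higher and 33.3% lower. Of 6 inflammasome genes 2, Aim2 and Il18, were higher in tumor cells, and Casp1, the protease of the inflammasome, was at 58.3 and 82.8 CPM (1.42). Genes of these lists that are near copies of each other, such as Gbp6 and Gbp10, can share reads.

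Of 10428 genes, the one whose log2 level was most like that of the summed GTPases over 13 points, each a sub-class of 1 library with at least 20 cells, was Gbp2b, with a Pearson correlation of 0.875. Hnrnpc (0.868), Nrbf2 (0.852), Smchd1 (0.849) and H2-K2 (0.834) came next. The points share their library, their depth and the tumor RNA described above. Among the members, the highest correlation was between Gbp5 and Gbp7 (0.823) and the lowest between Irgm2 and Gbp4 (-0.775).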

How the data were processed

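For each library the authors deposited whole UMI counts by gene and cell, not normalized. Per the file headers the matrices were made with Cell Ranger 6.1.2, the methods of the study name another version, and the submitters' processing notes list bcl2fastq 5.0.1, Seurat 4.1.0 and build mm10. The members and lists were chosen with earlier results of these data known.

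Cells were kept that had 200 genes or more and a mitochondrial share of UMIs under 20%. A cell belonged to a compartment where at least 2 UMIs and a set share of its UMIs lay on that marker list (0.02% tumor, 0.3% myeloid, 0.1% lymphoid, 1% fibroblast, 0.1% endothelial, 1% skeletal muscle) and no other gate was passed. The gates were set from marker UMIs alone. Within 1.5-fold above the myeloid gate lay 244 and 173 cells, and within 1.5-fold below it 249 and 122. A sub-class was the sub-list with the most UMIs, at least 2. Scrublet's automatic limit called 0 cells in both libraries, so no doublet caller was used in the main analysis, cells passing 2 gates were set aside, and leaving out the 12.8% and 4.77% of cells with the highest scores was an alternative.

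UMIs were summed per class and library and given as CPM with exact Poisson intervals, and library ratios with exact conditional binomial intervals, all at 95%. Shares used 50 random thinnings to 1000 UMIs, or 20 to 5000 UMIs. A share of 0 or a level without UMIs was read against 3 counts. Classes were compared with edgeR 4.0.16 in R 4.3.3 (TMM scaling, quasi-likelihood test, Benjamini-Hochberg adjustment, library as a block, since classes of a library come from the same pooled mice). The differences between the libraries correlated across genes between compartments at 0.0185 to 0.219. DESeq2 1.42.0 was an alternative. Counts, sums and tests were checked on simulated data. All members were named in every comparison, and of the other lists the signalling genes, of which 1 is not reported here, and up to 4 genes with the most UMIs; Irf8, Cxcl11, Ciita, Ido1 and Aim2 were named after their values were seen. Clustering and scoring used scanpy 1.11.5 and leidenalg 0.10.2, and the rest scipy 1.17.1, pandas 2.3.3, numpy 2.4.6 and matplotlib 3.10.9 in Python 3.11.15. Gene coordinates are of GENCODE M21.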

Additional observations from a re-analysis of the deposited data

Results flagged for a closer look

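Cells outside the 4 compartments entered no comparison and also held GTPase UMIs, at levels above what 3 UMIs allow. Cells that passed no gate had a summed GTPase level of 416 CPM in the LLY-283 + Olaparib library (2478 cells) and 580 CPM in the Combo library (638 cells). Cells that passed 2 or more gates had 322 CPM (616 cells) and 510 CPM (354 cells). In these cells, as in tumor cells, the Combo library had the higher value.

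Cells below the quality limits had 383 CPM (86 cells, 23 GTPase UMIs, 95% interval 243 to 575) in the LLY-283 + Olaparib library and 337 CPM (1586 cells, 469 GTPase UMIs, 307 to 368) in the Combo library. Their intervals overlapped.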

How the results depend on the processing

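Counts and shares stayed near their reported value under 65 settings of the library ratios, 58 of the tests against tumor cells, 17 of the shares, 11 of macrophages against neutrophils and 7 of the order of compartments, and the exceptions follow. Under Leiden clusters 1 member, against 2, was highest in tumor cells in both libraries. Of the members higher in the Combo library in tumor cells, 2 against 6 were past 1.5-fold in cells of 10000 to 20000 UMIs. In lymphoid cells, where no member could be compared, 2 were higher with the gates doubled, 2 under Leiden clusters and 1 with a myeloid gate of 1%. In stromal cells, against 0, 1 was higher with the gates doubled and 3 under Leiden clusters, and 1 was lower with the gates halved, 1 with a myeloid gate of 1% and 2 with tumor RNA subtracted. The difference in share of tumor cells was 6.87 points at 500 UMIs, 12.9 at 2000 UMIs and 15.5 without thinning. In myeloid cells it was 7.44 points at 500 UMIs, and without thinning it was 27.7 in myeloid, 47.0 in lymphoid and 24.6 in stromal cells.

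Against tumor cells, 0 members were lower in myeloid cells under Leiden clusters and 0 by DESeq2. In lymphoid cells 2 were lower without a filter and 2 with the gates halved, and 6 were higher with the gates doubled. In stromal cells 1 was higher with the gates halved and 1 under Leiden clusters, and 2 were lower by DESeq2. For macrophages against neutrophils 0 were higher without the replicate block, with the gates doubled and by DESeq2. The log2 fold change of Iigp1 in lymphoid cells was -0.17 without the Combo library and 1.64 without the LLY-283 + Olaparib library. The cause of these changes was not tested. Without the replicate block the members higher and lower were 4 and 2 in myeloid, 3 and 1 in lymphoid and 2 and 3 in stromal cells, and 0 and 7 in macrophages. Leiden clusters and DESeq2 moved the share of higher among all called genes from 46.3% to 68.6% and 64.3% in lymphoid and from 53.5% to 71.6% and 67.2% in stromal cells. Depth limits the lymphoid values, which rest on 37 and 174 GTPase UMIs.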
